A study of Mus musculus with 6 samples.

Results

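The 44 genes described here drive or restrain the cell cycle and DNA replication, and were measured in mouse macrophages. They comprise 13 genes of the G1/S transition, 13 of DNA replication and 18 of the G2 phase and mitosis (G2/M). They were chosen by symbol, without use of their measured values, out of 24445 genes with a symbol in the deposited count table. For each gene, the RefSeq transcript with most counts in the 6 libraries together was used. All 44 genes had enough counts to be tested, among 12023 genes tested in all, and the fewest counts of any of them in a library was 31 for *Cdc6*. In macrophages without *Acly*, 2 of these genes rose, 3 fell and 39 did not pass the test (11.4% passed, against 24.9% of all genes tested), and no change reached the fold limit that the study applied to its genes. The contrast with all genes depended on the fit. With 1 of the control libraries left out, 10 of the 44 passed, against 21.4% of all genes. With either of the other control libraries left out, 6 passed, against 25.1% and 20.7%.

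The cells were macrophages (BMDMs) obtained from bone marrow of female mice, cultured over 7 days with supernatant of the L929 line as a source of the growth factor CSF-1. Both groups were treated with 100 U/mL interleukin-4 (IL-4) for 24 h. The control group (Ctrl, 3 libraries, genotype labelled WT) came from Acly fl/fl littermates, which carry loxP sites around exon 9 of *Acly* and no Cre. The AclyM-KO group (3 libraries, genotype labelled KO) carried in addition Lyz2-Cre, which is active in macrophages, monocytes and neutrophils, so that deletion takes place as precursors mature and need not be complete. The floxed alleles and IL-4 were thus shared by both groups, the background was C57Bl/6J, and the age of the bone marrow donors is not given in the sources used here. The study calls its libraries biological replicates in the methods, but a legend speaks of technical replicates of pooled mice, so p-values measure the spread between these libraries, which may be technical. Kept transcripts held 12151975 to 15587283 counts per library.

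Cells that re-enter the cycle make D-type cyclins in response to growth factors such as CSF-1. Cyclin D with Cdk4 or Cdk6, and then cyclin E with Cdk2, phosphorylate the retinoblastoma protein and release E2F factors, which switch on the genes for origin licensing and DNA synthesis, while the inhibitors p21, p27 and p18 hold these kinases back. Late in the cycle, cyclins A and B with Cdk1 drive mitosis, and the genes of this phase are controlled through promoter elements bound by the DREAM and MuvB complexes. Macrophages grown from bone marrow divide in culture under CSF-1 and slow down as they mature.

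Promoters of 36 of the 44 genes were found among the RefSeq promoters of GRCm38.p6, each from 250 bases before to 50 bases after the start of the gene. They were searched on both strands for the cell cycle genes homology region (CHR, TTTGAA or TTCGAA), for the E2F element (TTTGGCGC, TTTCGCGC, TTTCCCGC or TTTGCCGC) and for the box of the factor NF-Y (CCAAT). A CHR stood in 12 of 15 G2/M promoters (80%), 2 of 11 replication promoters and 1 of 10 G1/S promoters, against 16.47% of the promoters of all genes tested and 21.66% of all genes with a promoter. E2F elements were found in 6 of 11 replication promoters (54.55%), 1 G2/M promoter and 1 G1/S promoter, against 4.818% of genes tested and 2.605% of all genes. The NF-Y box is common, and stood in 14 of 15 G2/M, 8 of 11 replication and 5 of 10 G1/S promoters against 43.06% of genes tested and 41.06% of all genes. Such a match is a run of letters and not a binding site, and matches may overlap, as do the paired E2F elements of *Mcm6*.

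The stretches from 200 bases before to 10 bases after the start are shown for 6 genes, on the strand of the gene, with whole matches in capitals. *Cdk1* holds all 3 kinds of element. *Bub1b* and *Cenpf* are the G2/M genes that fell in AclyM-KO, and *Kif11* is a G2/M gene with the same elements whose level did not pass the test. *Mcm6* stands for the replication genes, and *Cdkn1b* is the gene with the smallest adjusted p-value among the 44. The stretches lie at chr10:69352903-69353112 (minus strand), chr2:118598011-118598220 (plus), chr1:189688077-189688286 (minus), chr19:37376182-37376391 (plus), chr1:128359696-128359905 (minus) and chr6:134920201-134920410 (plus).
Cdk1: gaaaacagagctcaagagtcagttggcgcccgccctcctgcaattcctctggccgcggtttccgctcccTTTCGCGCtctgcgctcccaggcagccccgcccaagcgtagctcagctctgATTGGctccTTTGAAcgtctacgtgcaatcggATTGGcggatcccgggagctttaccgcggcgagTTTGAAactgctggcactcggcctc
Bub1b: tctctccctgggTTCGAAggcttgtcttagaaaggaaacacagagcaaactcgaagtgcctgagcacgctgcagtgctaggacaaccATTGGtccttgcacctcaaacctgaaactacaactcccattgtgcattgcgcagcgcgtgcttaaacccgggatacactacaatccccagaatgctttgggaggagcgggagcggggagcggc
Cenpf: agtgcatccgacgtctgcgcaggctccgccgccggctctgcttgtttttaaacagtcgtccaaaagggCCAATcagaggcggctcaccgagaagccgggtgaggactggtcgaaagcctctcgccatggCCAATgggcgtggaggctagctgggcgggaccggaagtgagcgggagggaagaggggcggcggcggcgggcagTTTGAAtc
Kif11: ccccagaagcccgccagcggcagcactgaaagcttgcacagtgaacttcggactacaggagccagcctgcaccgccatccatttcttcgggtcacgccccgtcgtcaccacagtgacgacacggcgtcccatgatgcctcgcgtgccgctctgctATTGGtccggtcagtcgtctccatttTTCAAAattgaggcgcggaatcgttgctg
Mcm6: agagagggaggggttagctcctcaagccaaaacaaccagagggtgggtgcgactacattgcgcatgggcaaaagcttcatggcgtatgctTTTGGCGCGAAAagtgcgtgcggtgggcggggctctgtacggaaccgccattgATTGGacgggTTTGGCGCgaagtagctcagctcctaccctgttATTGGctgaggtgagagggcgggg
Cdkn1b: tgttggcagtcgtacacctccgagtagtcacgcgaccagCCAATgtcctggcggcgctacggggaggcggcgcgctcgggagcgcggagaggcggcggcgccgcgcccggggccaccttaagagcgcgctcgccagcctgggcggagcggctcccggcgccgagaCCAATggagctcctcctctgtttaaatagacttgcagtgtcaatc

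**Figure D1:**
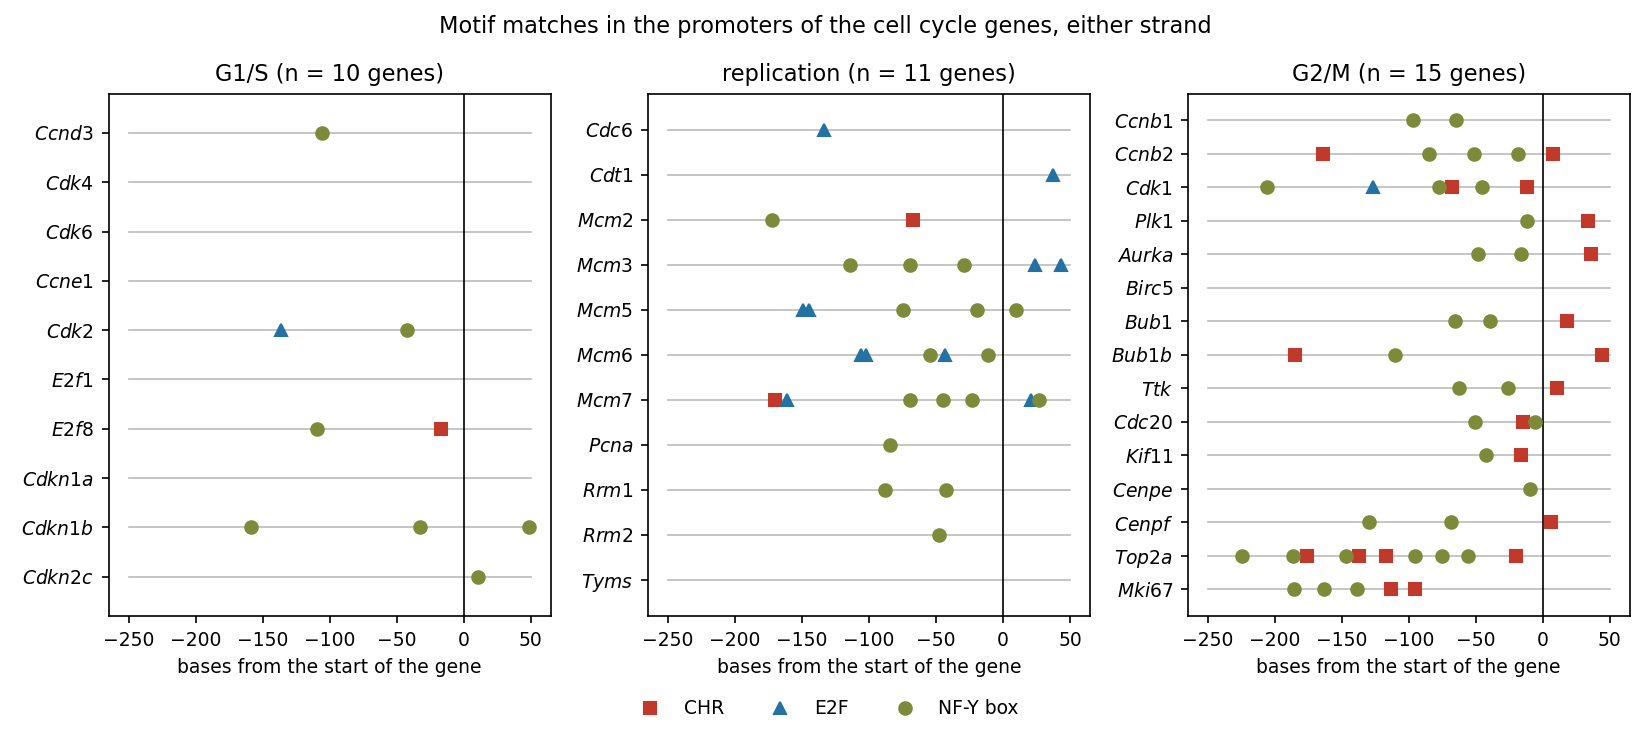
Matches of the CHR, the E2F element and the NF-Y box in 36 promoters, by distance in bases from the start of the gene, for G1/S, replication and G2/M genes. For genes with several starts, the matches of all starts are drawn on one line. CHR matches are seen in 12 of 15 G2/M genes and E2F matches in 6 of 11 replication genes.

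The libraries were first checked against their labels. *Acly*, which encodes ATP citrate lyase and lies at chr11:100476353-100528000 on the minus strand of GRCm38, had normalised read counts, scaled to the size of each library (CPM), of 332, 321 and 349 in the 3 Ctrl libraries and 146, 134 and 135 CPM in the 3 AclyM-KO libraries. It fell by 1.27 on the log2 scale (SE 0.053, adjusted p = 5.22e-10 by edgeR's quasi-likelihood test with Benjamini-Hochberg adjustment over 12023 genes). Macrophage genes were abundant in every library, and *Lyz2* led them with 6591 ± 515 CPM in Ctrl and 4139 ± 120 CPM in AclyM-KO (mean ± SD, n = 3 in each group). Only the AclyM-KO group carried Lyz2-Cre, and the effect of this driver on *Lyz2* was not tested. Ctrl replicate 2 stood apart from the other Ctrl libraries. Its counts differed from those of Ctrl replicates 1 and 3 by a chi-square of 7.55 and 6.34 per gene, against 4.68 between replicates 1 and 3 and 2.32 to 4.24 between AclyM-KO libraries. Calls that were gained or lost when this library was left out are given below with both values.

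Across all genes tested, 24.9% passed with an adjusted p-value under 0.05, 12.6% as lower and 12.4% as higher in AclyM-KO. Among the 44 cell cycle genes, 5 passed (11.4%). *Ccnd1* and *Ccnd3*, both D-type cyclins, rose, whereas *Cdkn1b*, which encodes the inhibitor p27, and the mitotic genes *Bub1b* and *Cenpf* fell. Some other fits narrowed or removed the contrast with all genes, and others kept it. In DESeq2 5 of the 44 passed, against 13.1% of all genes. Without Ctrl replicate 1, 10 of the 44 passed, against 21.4%, and with no filter on low counts 10, against 19.0%. In limma-voom 6 of the 44 passed, against 24.8%. Without Ctrl replicate 2, 6 passed, against 25.1%, and without AclyM-KO replicate 2, 3 passed, against 16.3%. The study's limit of 0.58 on the log2 scale was passed together with the adjusted p by 5.55% of all genes tested and by 0 of the 44, whose largest absolute log2 fold change was 0.48. The median log2 fold change was -0.094 over the 44 genes and 0.0014 over all genes, and the median absolute change was 0.13 against 0.15. The CPM of the 3 AclyM-KO libraries did not overlap with those of the 3 Ctrl libraries for 10 of the 44 genes (22.7%), against 40.2% of all genes tested. In RNA from whole cultures, fewer dividing cells and less RNA of these genes per cell cannot be told apart.

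Of the 39 genes that did not pass, 36 had a 95% interval of the log2 fold change that lay wholly within the limit of 0.58. The exceptions were *Ccne1* (-0.69 to -0.059), *Cdc6* (-0.37 to 0.67) and *Bub1* (-0.60 to -0.080). Before adjustment, 14 of the 44 genes had a p-value under 0.05 by the same edgeR test, against 4416 of the 12023 genes tested. A p-value above the threshold does not show that the groups were equal, and for these genes the interval gives the changes that the libraries allow.

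**Figure D2:**
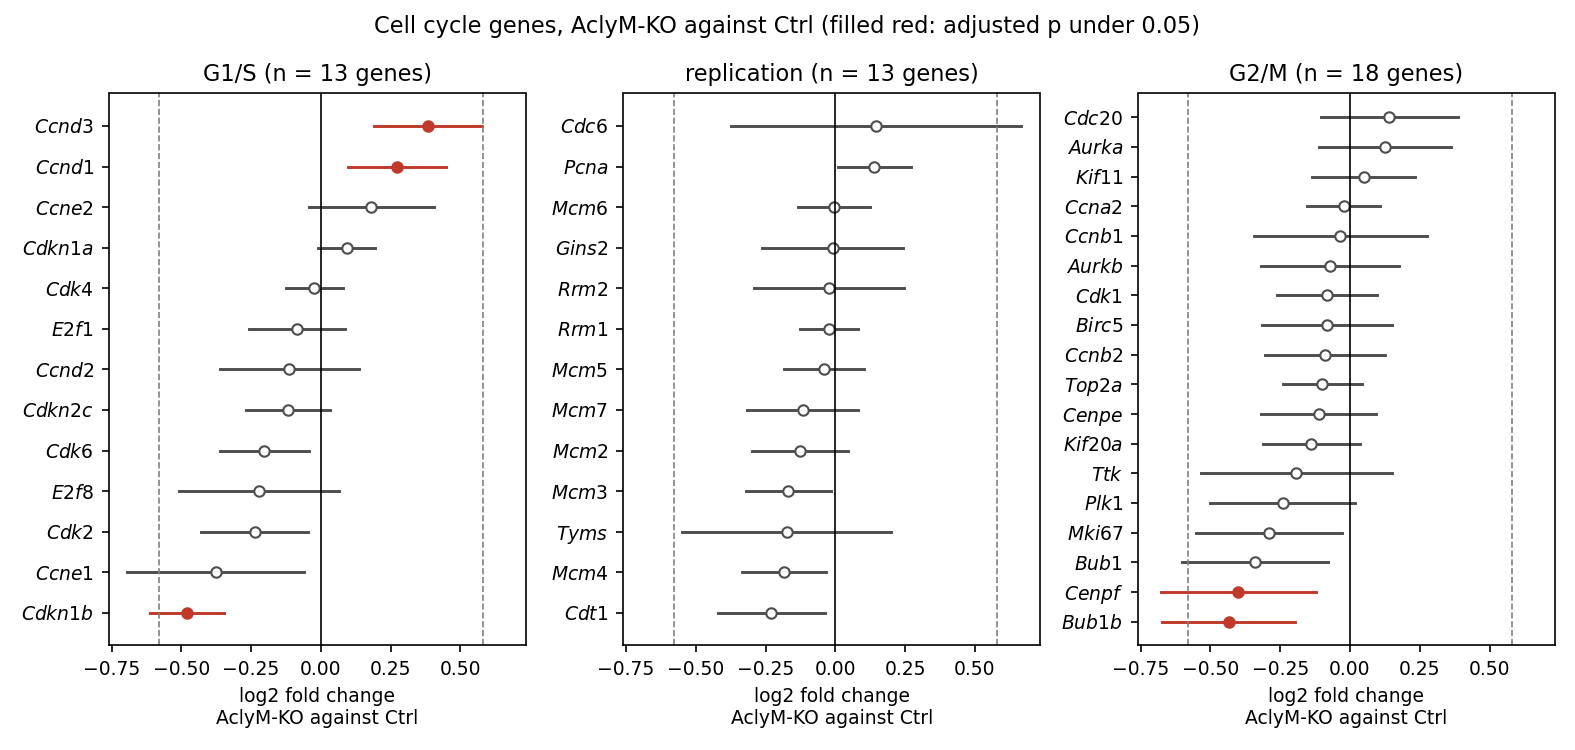
Log2 fold change of AclyM-KO against Ctrl (x axis) for each of the 44 genes (y axis), by phase, with the 95% interval as a line. Red filled points are the 5 genes with an adjusted p under 0.05, dashed lines mark 0.58 in either direction, and no point lies beyond them.

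Among the 13 G1/S genes, 2 rose, 1 fell and 10 did not pass, with a median log2 fold change of -0.11. The share that passed, 23.1%, was near the 24.9% of all genes tested. The summed level of the 13 genes was 1032, 1099 and 1082 CPM in Ctrl replicates 1 to 3 and 1122, 1076 and 1049 CPM in the AclyM-KO libraries. The sums therefore overlapped, but they add inhibitors to cyclins and kinases. The inhibitor gene *Cdkn1a* was the most abundant in them, with a mean of 394 CPM in Ctrl and 420 CPM in AclyM-KO. The changes in this phase were those of single genes in opposite directions, with 2 D-type cyclins higher and 1 inhibitor, *Cdkn1b*, lower.

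The D-type cyclins couple growth factor signals to Cdk4 and Cdk6. *Ccnd3* (cyclin D3, chr17:47505051-47599691) had 13.5, 14.5 and 13.6 CPM in Ctrl and 18.2, 18.0 and 18.0 CPM in AclyM-KO. All AclyM-KO libraries lay above all Ctrl libraries, and *Ccnd3* rose by 0.39 on the log2 scale (SE 0.091, adjusted p = 0.00586 in edgeR). *Ccnd1* (cyclin D1, chr7:144929931-144939925) had 140, 186 and 167 CPM in Ctrl and 214, 198 and 183 CPM in AclyM-KO, so that the lowest AclyM-KO library lay just below the highest Ctrl library. It rose by 0.27 (SE 0.082, adjusted p = 0.0238 in edgeR), but did not pass in DESeq2 or when Ctrl replicate 1, Ctrl replicate 3, AclyM-KO replicate 1 or AclyM-KO replicate 2 was left out, with log2 fold changes from 0.17 to 0.28. Without Ctrl replicate 2 it passed, at 0.37 (adjusted p = 0.000383 in edgeR). The sources do not say that strand was used in counting, and 23.4% of the exonic bases of *Ccnd1* lie under exons of *LTO1* on the other strand. *LTO1* itself rose, from 62.8 ± 3.99 to 74.1 ± 1.86 CPM (log2 fold change 0.24, SE 0.057, adjusted p = 0.00636 in edgeR), and how far its reads entered the counts of *Ccnd1* was not tested. Overlap with exons on the other strand also reached 19.7% in *Cdk4*, 17.4% in *Ccne2* and 12.5% in *Ccna2*. *Ccnd2* (cyclin D2) had 12.5 ± 1.5 CPM in Ctrl and 11.5 ± 0.713 CPM in AclyM-KO and did not pass.

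The kinases had no call. *Cdk4* had 112, 114 and 110 CPM in Ctrl and 112, 110 and 108 CPM in AclyM-KO, with a 95% interval of -0.12 to 0.078 for the log2 fold change. *Cdk6* had 171, 221 and 188 CPM in Ctrl and 176, 168 and 159 CPM in AclyM-KO, and its fold change of -0.20 missed the threshold (SE 0.075, adjusted p = 0.0614 in edgeR). It passed under 4 of 17 alternatives, DESeq2 among them, but its fold change was -0.10 without Ctrl replicate 2 (adjusted p = 0.196 in edgeR). *Cdk2*, the partner of cyclin E, had a log2 fold change of -0.24 (SE 0.091, adjusted p = 0.0681 in edgeR), and of -0.33 without Ctrl replicate 2, where it passed (adjusted p = 0.00703 in edgeR). Of its cyclins, *Ccne1* had 7.96 ± 0.895 CPM in Ctrl and 6.10 ± 0.641 CPM in AclyM-KO without overlap (adjusted p = 0.0784 in edgeR), and *Ccne2* had 13.8 ± 1.13 and 15.6 ± 1.35 CPM (adjusted p = 0.234 in edgeR). The E2F genes on the list, *E2f1* (an activator) and *E2f8* (a repressor), had log2 fold changes of -0.085 and -0.22, and neither passed. Without Ctrl replicate 3, *E2f8* was at -0.39 and passed (adjusted p = 0.0258 in edgeR).

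The CDK inhibitors did not move together. *Cdkn1b* (p27, chr6:134920401-134925513), which binds cyclin E and Cdk2, had 49.7, 47.4 and 49.8 CPM in Ctrl and 34.1, 36.5 and 34.8 CPM in AclyM-KO. Every AclyM-KO library lay far below every Ctrl library, and the gene fell by 0.48 on the log2 scale (SE 0.062, adjusted p = 4.49e-05 in edgeR), to 71.7% of the Ctrl level, and passed under all 17 alternatives. *Cdkn1a* (p21), a target of p53, was the most abundant of the 44 genes per transcript length, at 206 CPM per kilobase in Ctrl and 220 in AclyM-KO. In Ctrl its level was 398, 375 and 410 CPM, and in AclyM-KO it was 433, 417 and 412 CPM. These groups did not overlap but lay close together, and the log2 fold change of 0.092 (95% interval -0.0090 to 0.19) did not pass (adjusted p = 0.176 in edgeR). *Cdkn2c* (p18), an inhibitor of Cdk4 and Cdk6, had 31 ± 0.340 CPM in Ctrl and 28.6 ± 1.16 CPM in AclyM-KO and did not pass.

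**Figure D3:**
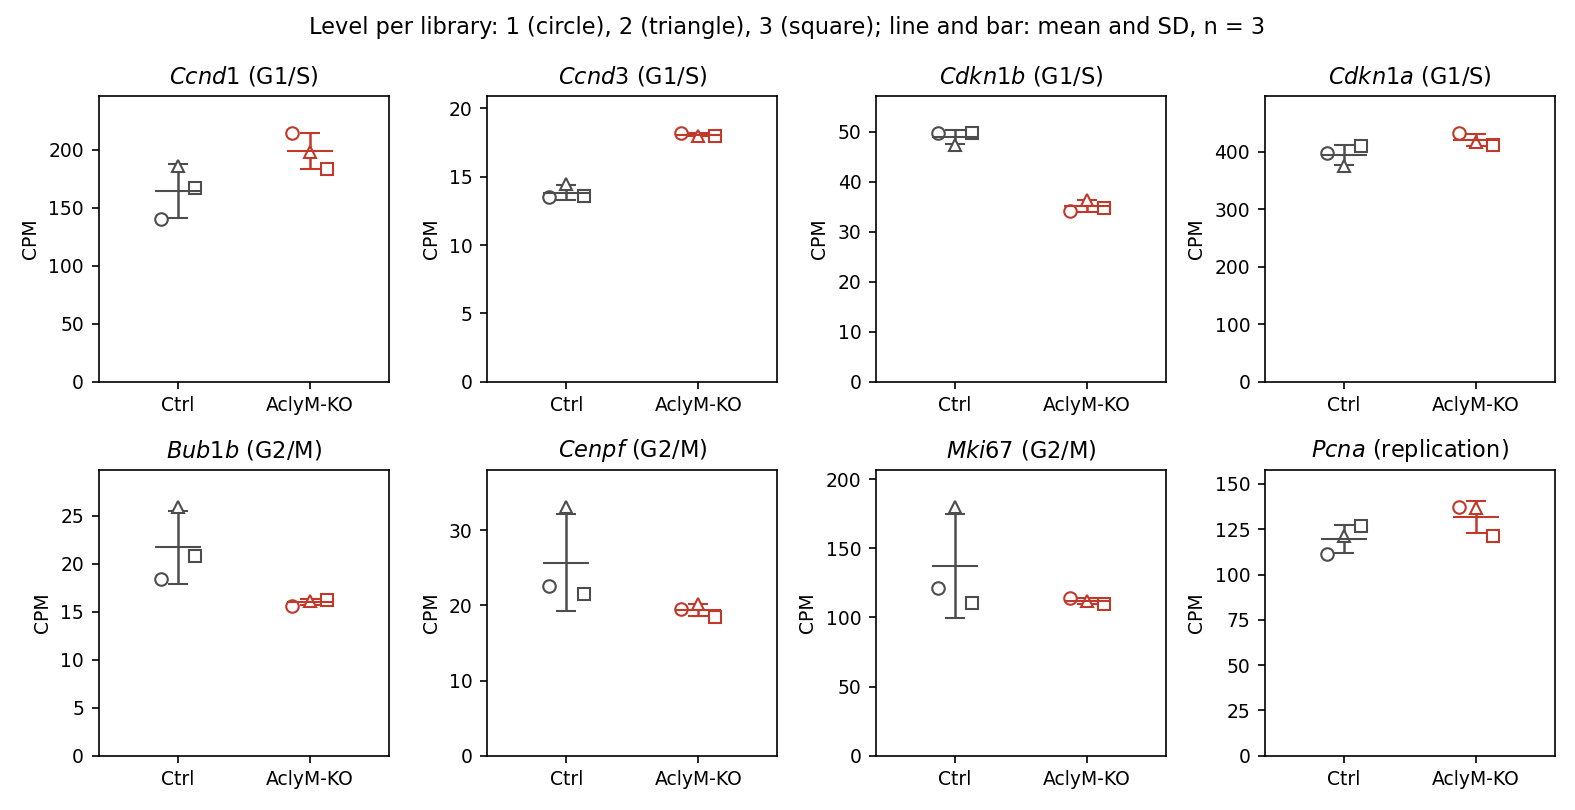
CPM (y axis, from 0) of the 5 genes that passed and of *Cdkn1a*, *Mki67* and *Pcna* in each Ctrl and AclyM-KO library (x axis), with the mean and SD of 3 libraries. *Cdkn1b* is lower and *Ccnd3* higher in every AclyM-KO library, whereas *Cenpf* and *Mki67* reach 33.1 and 180 CPM in Ctrl replicate 2 alone.

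None of the 13 replication genes passed in either direction, against 24.9% of all genes tested. Their median log2 fold change was -0.041, which was -0.18 without Ctrl replicate 1 and -0.11 without Ctrl replicate 3. By the same edgeR test 4 of the 13 had an unadjusted p-value under 0.05, against 4416 of the 12023 genes tested. In DESeq2 0 of the 13 passed, against 13.1% of all genes. Their summed level was 471, 514 and 511 CPM in Ctrl and 501, 487 and 481 CPM in AclyM-KO, with overlap. The log2 fold changes spanned -0.23 to 0.15.

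Origin licensing begins with Cdc6 and Cdt1, which load the Mcm2 to Mcm7 helicase onto DNA. *Cdt1* had 28.1 ± 2.88 CPM in Ctrl and 24 ± 1.75 CPM in AclyM-KO, the lowest fold change of this phase (-0.23, SE 0.089, adjusted p = 0.0739 in edgeR). Without Ctrl replicate 2 it was at -0.31 and passed (adjusted p = 0.0114 in edgeR). *Cdc6* was the least abundant of the 44 genes per length, at 0.844 CPM per kilobase in Ctrl, and the interval of its change was -0.37 to 0.67, with 57, 67 and 31 counts in Ctrl and 66, 72 and 54 in AclyM-KO. All 6 *Mcm* genes had log2 fold changes below 0, from -0.19 for *Mcm4* (SE 0.071, adjusted p = 0.0676 in edgeR) to -0.0045 for *Mcm6*, which was at 0.024 without Ctrl replicate 2. *Mcm4* had 38.4, 42.9 and 39.4 CPM in Ctrl and 37.7, 34.6 and 33.8 CPM in AclyM-KO, without overlap. *Mcm6*, the most abundant of the helicase genes per length, had 59.9, 66.6 and 64.6 CPM in Ctrl and 65.9, 59.3 and 65.2 CPM in AclyM-KO. The groups were interleaved, and the interval of its change was -0.13 to 0.12. The 6 replication genes with an E2F element had log2 fold changes of -0.23 to 0.15, and 0 passed.

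Downstream of licensing, *Gins2*, a subunit of the active helicase, had 10.9 ± 0.928 CPM in Ctrl and 10.8 ± 0.819 CPM in AclyM-KO. This gene is uncertain, since 67.3% of its exonic bases lie under exons of *Gse1* on the other strand, and *Gse1* fell by 0.36 on the log2 scale (SE 0.086, adjusted p = 0.00661 in edgeR). *Pcna*, the sliding clamp of DNA polymerases, had 111, 121 and 127 CPM in Ctrl and 137, 137 and 121 CPM in AclyM-KO. The lowest AclyM-KO library lay among the Ctrl libraries, and the log2 fold change of 0.14 did not pass (SE 0.061, adjusted p = 0.111 in edgeR). Deoxynucleotides are supplied by ribonucleotide reductase and thymidylate synthase. *Rrm1*, the large subunit of the former, had 73.9, 75.6 and 76.0 CPM in Ctrl and 74.6, 73.3 and 74.1 CPM in AclyM-KO, with an interval of -0.13 to 0.082 for the change. The other subunit, *Rrm2*, had 24 ± 5.0 and 23.5 ± 2.60 CPM, and *Tyms* had 6.05 ± 0.570 and 5.35 ± 1.12 CPM.

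Of the 18 G2/M genes, 2 fell (11.1%, against 12.6% of all genes tested), 0 rose and 16 did not pass, with a median log2 fold change of -0.094. The unadjusted p-value of the same edgeR test was under 0.05 for 2 of the 16, *Bub1* and *Mki67*, with negative fold changes. Among the 12023 genes tested, 4416 had such a p-value, those that passed included. Of all 18 genes, 15 had a log2 fold change below 0, while the median over all genes tested was 0.0014. Without Ctrl replicate 2, *Ccna2* and *Cenpe* were above 0, at 0.017 and 0.00084. The summed level of the 18 genes was 521, 650 and 532 CPM in Ctrl and 517, 510 and 500 CPM in AclyM-KO. The AclyM-KO libraries thus lay just below the lower Ctrl libraries, and Ctrl replicate 2 stood far above the other libraries.

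The spindle checkpoint holds cells in mitosis until all chromosomes are attached. *Bub1b* (BubR1, chr2:118598211-118641591), one of its kinases, had 18.4, 25.9 and 20.8 CPM in Ctrl and 15.6, 16.1 and 16.2 CPM in AclyM-KO. Every AclyM-KO library lay below every Ctrl library, and the gene fell by 0.43 (SE 0.11, adjusted p = 0.0104 in edgeR). It passed under all 17 alternatives, and without Ctrl replicate 2 it fell by 0.30 (adjusted p = 0.0365 in edgeR). *Bub1*, the related kinase, had 16.3, 16.7 and 18.1 CPM in Ctrl and 16.2, 12.8 and 11.2 CPM in AclyM-KO, and missed the threshold (log2 fold change -0.34, SE 0.12, adjusted p = 0.0540 in edgeR). It passed under 5 of the 17 alternatives, limma-voom among them. *Ttk*, which starts the checkpoint, and *Cdc20*, the target that it blocks, had log2 fold changes of -0.19 and 0.14 and did not pass.

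At the kinetochore, *Cenpf* (chr1:189640606-189688086) had 22.6, 33.1 and 21.5 CPM in Ctrl and 19.5, 20.1 and 18.5 CPM in AclyM-KO. The groups did not overlap, and it fell by 0.40 (SE 0.13, adjusted p = 0.0359 in edgeR). Without Ctrl replicate 2 the log2 fold change was -0.19 (adjusted p = 0.149 in edgeR), and the gene also lost the call without any one of the AclyM-KO libraries and with counts summed over all transcripts. *Cenpe*, a kinetochore motor, had 26.3 ± 3.91 CPM in Ctrl and 24.3 ± 1.02 CPM in AclyM-KO. The spindle motors *Kif11* and *Kif20a* had log2 fold changes of 0.049 and -0.14, and neither passed. Without Ctrl replicate 1, *Kif20a* was at -0.23 and passed (adjusted p = 0.0464 in edgeR). For *Kif20a*, 29.3% of the exonic bases lie under *Cdc23* on the other strand.

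Cyclins A2, B1 and B2 and their kinase Cdk1 had no call. *Ccna2* had 45.8, 51.5 and 48.2 CPM in Ctrl and 48.3, 48.0 and 46.7 CPM in AclyM-KO, with an interval of -0.15 to 0.11. *Ccnb1*, *Ccnb2* and *Cdk1* had log2 fold changes of -0.035, -0.090 and -0.082 and did not pass. Among the mitotic kinases and their partners, *Plk1* was at -0.24 (adjusted p = 0.169 in edgeR), *Aurka* at 0.13, *Aurkb* at -0.071 and *Birc5* (survivin, which acts with Aurora B) at -0.082, and none passed. Without Ctrl replicate 1, *Plk1* was at -0.37 and passed (adjusted p = 0.0344 in edgeR). The common markers of dividing cells were also without a call. *Mki67*, which encodes the Ki-67 antigen, had 121, 180 and 110 CPM in Ctrl and 114, 112 and 109 CPM in AclyM-KO. Its log2 fold change was -0.29 (SE 0.12, adjusted p = 0.0982 in edgeR), and -0.053 without Ctrl replicate 2 (adjusted p = 0.503 in edgeR). It passed without Ctrl replicate 1, at -0.37, without Ctrl replicate 3, at -0.43, and with no filter on low counts (adjusted p = 0.0436, 0.0141 and 6.84e-06 in edgeR). *Top2a*, the topoisomerase that untangles replicated chromosomes, had 98.0, 119 and 101 CPM in Ctrl and 104, 98.3 and 94.9 CPM in AclyM-KO (adjusted p = 0.308 in edgeR). Over the 12 G2/M genes with a CHR, log2 fold changes ran from -0.43 to 0.14, and 2 of the 12 were called lower, against 12.6% of all genes tested.

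Ctrl replicate 2 was the highest of the 6 libraries for 23 of the 44 genes (52.3%), against 21.8% of all genes tested, and for 11 of the 18 G2/M genes. Its level over that of the other Ctrl libraries had a median log2 ratio of 0.17 in G2/M genes, 0.098 in replication genes and 0.034 in G1/S genes, against -0.0015 over all genes. *Mki67*, *Cenpf* and *Bub1b* stood well above the other Ctrl libraries in it, whereas *Cdk2*, *E2f1*, *Cdt1* and *Ccnb1* were among the genes that were lowest of the Ctrl group in it. The same library held the highest sum of monocyte markers, 691 CPM against 502 and 535 in the other Ctrl libraries and 520 to 546 in AclyM-KO. Nearly all of that sum was *Fn1* alone, at 674 CPM in Ctrl replicate 2 against 488 and 522 CPM in the other Ctrl libraries, and its relation to the cell cycle genes was not tested. The summed CPM of all 44 genes were 2023, 2264 and 2124 in Ctrl and 2140, 2074 and 2030 in AclyM-KO. Without Ctrl replicate 2, the median log2 fold change of the G2/M genes was -0.052 in place of -0.094, and 1 of them passed.

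**Figure D4:**
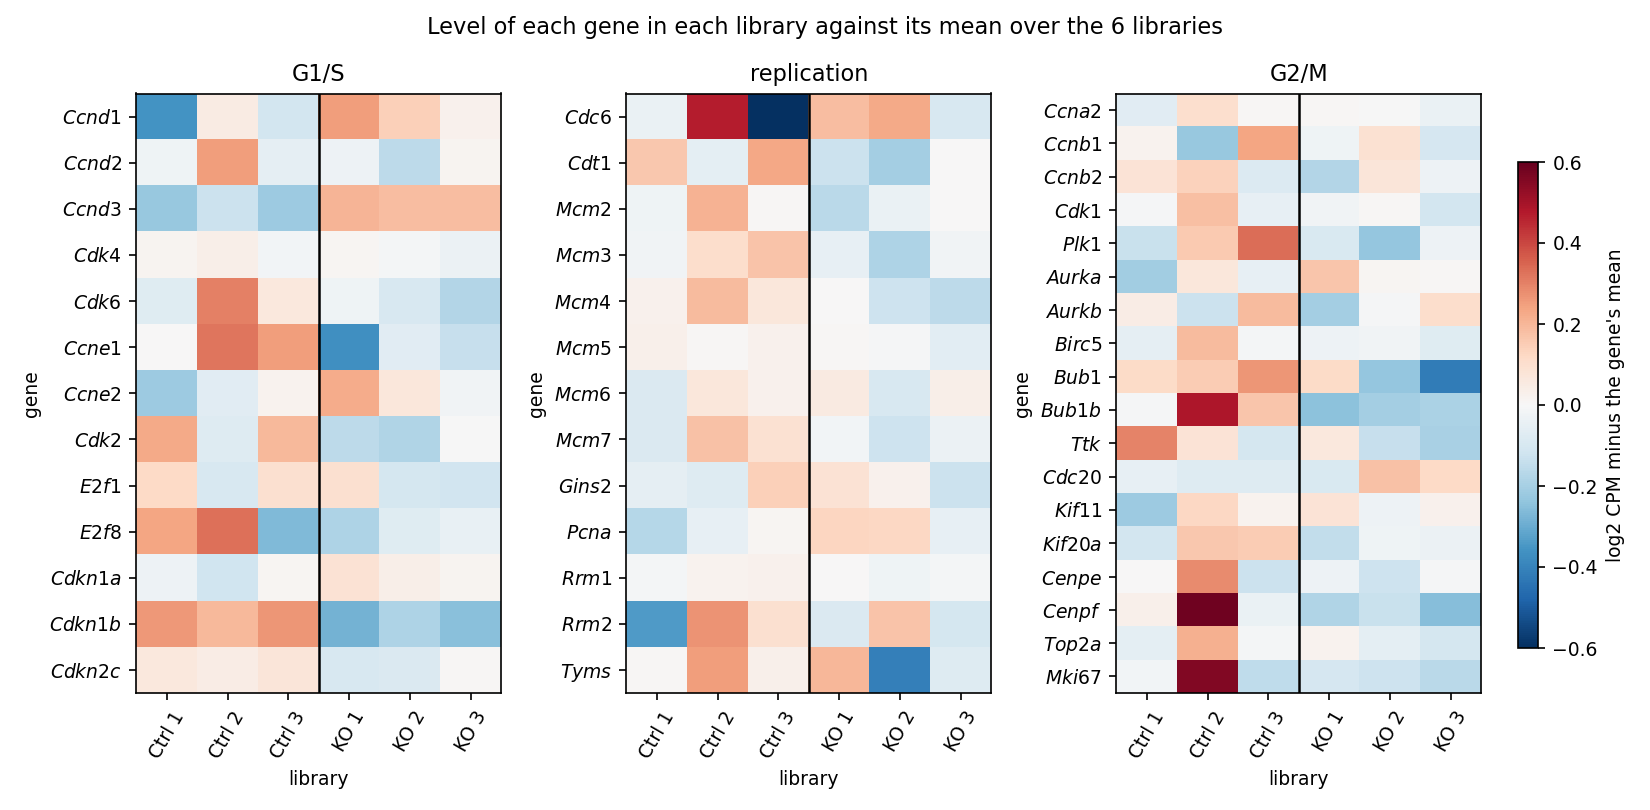
Log2 CPM of each of the 44 genes (rows) in each library (columns) minus the mean of the gene over the 6 libraries, by phase, with colour limits of -0.6 and 0.6. Ctrl 2 is the reddest column for 11 of 18 G2/M genes, and *Cdkn1b* and *Ccnd3* differ in colour between all Ctrl and all AclyM-KO columns.

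Other genes of the cell cycle, from lists fixed by function, were then counted in the same fit, and each share that passed stands against 24.9% of all genes tested. Counts from other fits stand against other shares of all genes. These were 13.1% in DESeq2 and 16.3% to 25.1% with 1 library left out. Of 44 further origin and replisome genes, 5 fell and 0 rose (11.4%, median -0.060). The count was 2 in DESeq2 and 2 to 6 with 1 library left out, with 2 without Ctrl replicate 2, Ctrl replicate 3 or AclyM-KO replicate 3. *Clspn*, the adaptor of the replication checkpoint, fell by 0.39, *Chaf1b*, a chromatin assembly factor, by 0.32, and *Rfc5*, part of the clamp loader, by 0.25, but *Chaf1b* and *Rfc5* lost the call under 8 and 9 of the 17 alternatives, DESeq2 among them, and were at -0.28 and -0.23 without Ctrl replicate 2 (adjusted p = 0.101 and 0.0623 in edgeR). *Orc1* and *Cdc45* did not pass, at 0.15 and 0.020. Of 76 further mitotic genes tested, 10 fell and 2 rose (15.8%, median -0.12). In DESeq2 5 fell and 2 rose. Without AclyM-KO replicate 1, 4 fell and 0 rose, and without AclyM-KO replicate 2, 2 fell and 2 rose. Of all genes, 13.1%, 16.9% and 16.3% passed in these 3 fits. With any other library left out, 7 to 10 fell and 1 to 4 rose, against 18.3% to 25.1% of all genes that passed. *Fbxo5* (Emi1, an inhibitor of the anaphase-promoting complex) fell by 0.62 and *Cenpa*, the centromeric histone, fell by 0.58, from 66.9 ± 1.93 to 44.6 ± 1.48 CPM. Among the genes of this list that passed, these 2 lay beyond the fold limit, and *Cenpa* passed under all 17 alternatives, whereas *Fbxo5* failed 3 of them. *Melk*, a mitotic kinase, fell by 0.45, but lost the call under 5 alternatives, among them DESeq2 and the fit without Ctrl replicate 2 (log2 fold change -0.35, adjusted p = 0.0880 in edgeR). *Mad1l1* and *Bub3*, which act in the spindle checkpoint with Bub1b, rose by 0.32 and 0.21. Without AclyM-KO replicate 1 neither passed (adjusted p = 0.0574 and 0.0684 in edgeR), *Mad1l1* also lost the call without Ctrl replicate 1 (0.0606) and *Bub3* without AclyM-KO replicate 3 (0.0661). Of 22 genes of nucleotide supply, 4 rose and 1 fell (22.7%, near the 24.9% of all genes tested, median 0.13), with *Impdh2* (0.50), *Nme2* (0.43) and *Rrm2b* (0.34) higher and *Paics* lower by 0.17, while *Tk1* did not pass. With 1 library left out, 2 to 6 rose and 0 to 1 fell, with 2 higher without AclyM-KO replicate 1 or 2 and 6 without Ctrl replicate 2. *Impdh2* and *Rrm2b* lost the call in DESeq2, *Paics* without Ctrl replicate 3, AclyM-KO replicate 2 or AclyM-KO replicate 3 (adjusted p = 0.0757, 0.116 and 0.0888 in edgeR), and *Rrm2b* was at 0.21 without Ctrl replicate 2 (adjusted p = 0.134 in edgeR).

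The regulators upstream of these genes gave mixed counts. Of 18 genes for E2F, DP and pocket proteins and their partners, 2 fell and 1 rose (16.7%, against 24.9% of all genes tested). *Rbl2* and *Rbl1*, pocket proteins that repress cell cycle genes in resting cells, fell by 0.35 (adjusted p = 0.000102 in edgeR) and 0.21. *Rbl1* lost the call under 6 of the 17 alternatives, DESeq2 among them. With the transcript of lowest total kept, *Rbl1* was at -0.13 (adjusted p = 0.366 in edgeR). The repressor *E2f6* rose by 0.33, with no call without AclyM-KO replicate 2 (adjusted p = 0.0631 in edgeR), and 15 genes did not pass, among them *Rb1* (-0.027), the drivers of mitotic genes *Foxm1* (0.21) and *Mybl2* (0.083), and *E2f2* (0.28), *E2f3* (-0.082), *E2f4* (-0.092) and *E2f7* (0.17). Of 20 other CDKs, inhibitors and G1 regulators, 5 rose and 3 fell (40.0%), and with 1 library left out 3 to 4 rose and 2 to 5 fell, with 3 higher without Ctrl replicate 1 or 3 and 5 lower without Ctrl replicate 2. The inhibitor *Cdkn1c* (p57) had 86, 50 and 46 counts in Ctrl and 104, 126 and 123 counts in AclyM-KO, and rose by 0.80 (SE 0.18). *Cdkn2a* rose by 1.10 and *Cdkn2b* by 0.71, but from only 12 to 15 and 21 to 30 counts per Ctrl library, and both lost the call in DESeq2. *Cdkn2b* also lost it without Ctrl replicate 2, at 0.65 (adjusted p = 0.0978 in edgeR). Cyclins G2 and I (*Ccng2* and *Ccni*) fell by 0.42 and 0.45, *Cdk7* fell by 0.24 with no call in DESeq2, and *Cdkn2d* (p19) missed the threshold at -0.32 (adjusted p = 0.0563 in edgeR) but passed without Ctrl replicate 2, at -0.43 (adjusted p = 0.00983 in edgeR).

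Among 27 growth factor and proliferation regulators, 8 fell and 5 rose (48.1%), and with 1 library left out 4 to 8 fell and 4 to 6 rose, with the fewest lower, 4, without AclyM-KO replicate 3 and 5 without AclyM-KO replicate 2. *Mxi1* and *Mxd1*, which compete with Myc for its partner Max, fell by 0.77 and 0.63, whereas *Myc* itself did not pass (0.048, adjusted p = 0.686 in edgeR). *Egr1*, an immediate early gene, fell by 0.60 but lost the call under 7 alternatives and was at -0.39 without Ctrl replicate 2 (adjusted p = 0.0763 in edgeR), and *Csf1r*, the receptor of CSF-1, fell by 0.20. The antiproliferative gene *Tob1* rose by 0.50, and the transcription factors *Klf4* and *Klf2* rose by 0.48 and 0.41. Of 29 p53 target genes, 7 rose and 1 fell (27.6%, near the 24.9% of all genes tested, median 0.071), led by *Gadd45a*, which inhibits Cdk1, at 0.65, from 65.5 ± 5.20 to 103 ± 2.35 CPM (adjusted p = 1.23e-06 in edgeR). In DESeq2 and without Ctrl replicate 2, AclyM-KO replicate 1 or AclyM-KO replicate 2, 4 p53 target genes rose, and the median ranged from 0.0087 to 0.095 with 1 library left out. *Sesn2* (0.39), *Rrm2b* (0.34) and *Mdm2* (0.22) rose too, *Polk* fell by 0.49, and *Trp53* did not pass (-0.082). *Cdkn1a*, the classical target, was held on the G1/S list and is described above. Of 31 DNA damage checkpoint and repair genes, 2 fell, *Xrcc1* by 0.48 and *Blm* by 0.40, and 0 rose (6.45%). *Blm* lost the call without AclyM-KO replicate 3, at -0.33 (adjusted p = 0.0842 in edgeR), and without Ctrl replicate 2, at -0.32 (adjusted p = 0.0628 in edgeR).

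**Figure D5:**
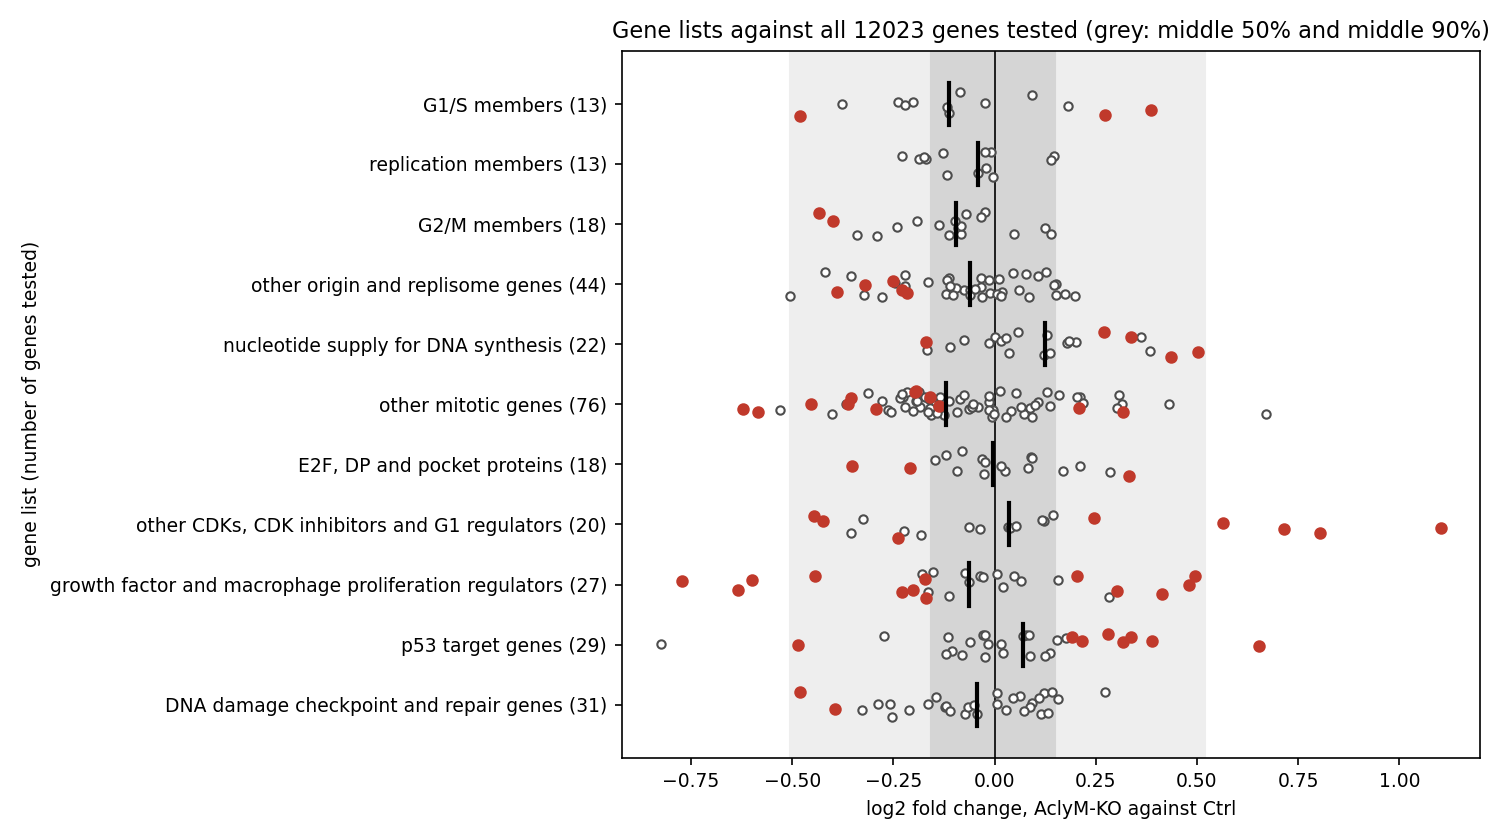
Log2 fold change of AclyM-KO against Ctrl (x axis) of the genes of each list (y axis, points spread for visibility, red when the adjusted p is under 0.05, black bar at the median). The grey bands hold the middle 50% and 90% of all 12023 genes tested, and the 44 cell cycle genes lie within the outer band.

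Other cell types were looked for with marker lists. Myeloid precursor markers summed to 13.3, 17.7 and 16.8 CPM in Ctrl and 34.6, 33.4 and 34.8 CPM in AclyM-KO. Of 12 genes on this list, 9 stayed under 10 counts in every library and 2 were tested, *Spn* and *Kit*, and both rose, by 1.16 and 1.26. *Spn* was the most abundant at 11.2 ± 2.11 CPM in Ctrl, and *Myb* and *Ms4a3* had 0 counts in all Ctrl libraries, with *Myb* at 3, 2 and 1 and *Ms4a3* at 1, 0 and 0 counts in AclyM-KO. Neutrophil markers summed to 283, 310 and 275 CPM in Ctrl and 249, 239 and 255 CPM in AclyM-KO, led by *Csf3r*, with *Ly6g* at 0 counts in 5 of 6 libraries. Of 8 tested, *Mmp8*, *S100a8* and *S100a9* rose and *Mmp9* and *Csf3r* fell, of which *S100a9* lost the call without Ctrl replicate 3 (adjusted p = 0.0728 in edgeR). *Mmp9* had 45.0, 85.7 and 54.7 CPM in Ctrl, and its log2 fold change was -0.85, and -0.55 without Ctrl replicate 2. Fibroblast markers summed to 0.743 to 3.15 CPM, mast cell markers to 0.477 to 0.817 CPM and lymphoid markers to 1.77 to 3.24 CPM. Dendritic cell markers summed to 20.8 to 26.5 CPM in Ctrl and 15.4 to 19.7 CPM in AclyM-KO, led by *Batf3*, and erythroid and megakaryocyte markers to 58.7 to 63.1 and 78.7 to 84.7 CPM, nearly all of it *Pf4*. Of the genes tested on these lists, *Cd79b* and *Batf3* fell by 0.93 and 0.57, *Cd209a* and *Pf4* rose by 1.65 and 0.42, and of the monocyte markers *F13a1* fell by 0.89. *Cd209a*, with 3, 3 and 6 counts in Ctrl, and *Cd79b* lost the call in DESeq2. Of 12 macrophage markers, 7 fell, led by *Mertk* (by 0.73), *Lyz2* (by 0.67) and *C1qa* (by 0.67), and *Adgre1* rose by 0.33. Since Lyz2-Cre was present in the AclyM-KO group alone, the fall of *Lyz2* cannot be told apart from an effect of the driver. The part of these marker differences in the changes of cell cycle genes was not tested.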

How the data were processed

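Strand-specific mRNA libraries were sequenced, and per the study's methods and the submitters' processing notes the authors aligned reads to mm10 with STAR 2.5.2b. The deposited values are unnormalized read counts per RefSeq transcript. The counting program is not given in the sources used here. Of 35745 rows, 35435 were paired with genes through RefSeq (GRCm38.p6) and 193 through GENCODE M21. The other 117, with 0.370% to 1.381% of counts, were left out. The design assumed counts per gene, so the transcript with the highest total was kept for each gene, also for the 15 of the 44 cell cycle genes with several rows.

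The test was edgeR's quasi-likelihood F test (glmQLFit and glmQLFTest after filterByExpr and TMM scaling, edgeR 4.0.16, R 4.3.3), with genotype as the term, over 12023 genes, two-sided, with Benjamini-Hochberg adjustment and a limit of 0.05. The common coefficient of variation between libraries was 0.0588. CPM use TMM-scaled library sizes, and levels per kilobase use the longest GENCODE transcript matched to the gene's rows. The procedure was tested on simulated data, but no outcome of that test is reported here. DESeq2 1.42.0, which the authors used, and limma-voom (limma 3.58.1), other scalings, filters, transcript choices, equal depth, a replicate block and removal of each library were alternatives. Genes and lists were chosen with earlier results of these data known. By rule, genes that passed and the 3 most abundant per phase are given per library, and of other lists the 3 largest increases and decreases among genes that passed and a fixed set of regulators. For marker lists the most abundant gene and defining genes at 0 are named. *Myb*, *Ms4a3* and overlapping neighbours were named after their values were seen. Some marker genes that this rule names are not reported here.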

Additional observations from a re-analysis of the deposited data

How the results depend on the processing

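*Cdkn1b*, *Ccnd3* and *Bub1b* passed under all 17 alternatives in the direction given. Signs under the alternatives were checked for the 44 genes and for the tested genes named from the other lists. None of these that passed took the other sign under any alternative. However, 9 of the cell cycle genes that did not pass did (*Cdc6*, *Mcm6*, *Gins2*, *Rrm2*, *Ccna2*, *Ccnb1*, *Aurkb*, *Kif11* and *Cenpe*), as did *Orc1*, *Cdc45*, *Mybl2*, *Myc* and *Fn1*. With the fold limit of 0.58 added, 309 genes were lower and 358 higher, and the cell cycle genes gave 0 lower and 0 higher among G1/S genes and 0 lower among G2/M genes. DESeq2 gave 2 lower (*Cdk6* in addition) and 1 higher G1/S gene. Scaling by library totals gave 3 lower G1/S genes and 1 lower replication gene, and the test without a filter on low counts gave 3, 1 and, in G2/M, 4 lower genes. Equal depth gave 1 lower replication gene, and counts summed over transcripts 1 lower G2/M gene. The cause was not tested. With each library left out in turn, 972 to 1548 of all genes were lower and 1002 to 1512 higher, and the fewest lower genes, 972, came without AclyM-KO replicate 2. Among members of the 3 phases, lower calls then ranged from 1 to 3 (G1/S), 0 to 1 (replication) and 1 to 5 (G2/M), and higher G1/S calls from 1 to 2. The largest total, 10 of 44 genes, came without Ctrl replicate 1, where 21.4% of all genes passed. The median log2 fold change then ranged from -0.15 to -0.064 (G1/S) and from -0.18 to -0.025 (replication). The test without a filter on low counts also gave 10 of 44 genes, against 19.0% of all genes, and DESeq2 gave 5 of 44, against 13.1%. The replicate block gave 1329 lower and 1315 higher genes and the same 5 cell cycle genes. Correlations of same-numbered libraries were -0.065, 0.050 and -0.031, and the sources do not say that numbers pair the libraries. Of the 44 genes, *Cdc6* had the fewest counts in a library, 31.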
